A study of Mus musculus with 12 samples.

Results

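The colony-stimulating factor (CSF) receptor axis of microglia was followed here as 6 genes of a deposited expression table of mouse corpus callosum, chosen by symbol: the receptor gene Csf1r, its ligand genes Csf1 and Il34, and the related receptor genes Csf2ra, Csf2rb and Csf3r. All 6 were found among the 15584 genes listed, and all 6 were among the 13759 genes tested. The corpus callosum is the large white matter tract between the cerebral hemispheres. The table gave FPKM, a count of fragments set against the length of the transcript and the size of the library, for 12 libraries. These came from 4 groups of 3: AHR CKO mice on cuprizone (AHR CKO CPZ), AHR CKO mice without it (AHR CKO Ctrl), wild-type mice on cuprizone (WT CPZ) and wild-type mice without it (WT Ctrl). AHR CKO mice lack the aryl hydrocarbon receptor in microglia, per the series design. Cuprizone is a copper chelator used to strip myelin from this tract. The sources used here do not give the Cre line, the age and sex of the mice or the dose and length of cuprizone feeding.

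CSF1R is a receptor tyrosine kinase of microglia and other macrophages, and signalling through it keeps microglia alive and lets them divide. It has a pair of unrelated ligands: CSF1 comes largely from glia in the brain, while IL-34 comes mainly from neurons, and microglia of mouse white matter lean more on CSF1 than those of grey matter do. The genes Csf2ra and Csf2rb encode the alpha and common beta chains of the receptor for GM-CSF, and Csf3r encodes the receptor for G-CSF. These receptors belong to the cytokine receptor class, have no kinase of their own and signal through JAK kinases and STAT factors.

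The libraries and their labels were checked first. FPKM summed to between 447156 and 519470 per library, and across genes the libraries correlated with r of 0.972 to 0.993 within a group and 0.932 to 0.983 between groups. WT CPZ replicate 2 had 94 genes listed at 0, each AHR CKO library had 52 to 80, and every other WT library had 0. The sources used here do not say how genes were chosen for the table. Absence of a gene from it therefore does not show absence from the tissue. An estimate from the lowest values gave 11500000 to 15000000 fragments per library. It rests on 9 to 23 values in each, and the window of values used confines it to 8330000 to 20000000 whatever the data. Ahr averaged 1.94 ± 0.567 FPKM in AHR CKO CPZ, 1.76 ± 0.332 in AHR CKO Ctrl, 1.86 ± 0.141 in WT CPZ and 1.78 ± 0.385 in WT Ctrl (SD, n = 3 each). It passed no comparison, and since other cells of the tract also express it and the sources do not say which exon was removed, this does not check the genotype. All 15 microglia markers were detected, but Cx3cr1, the microglial fractalkine receptor, was near 1 FPKM in some of the AHR CKO libraries and in no WT library. It was listed at 1.16, 22.7 and 29.6 FPKM in AHR CKO CPZ, at 1.05, 9.60 and 0.801 in AHR CKO Ctrl, and at 22.6 to 69.4 in the 6 WT libraries. The labels do not say whether replicates are different mice, so p-values speak only of the spread among these libraries, part or all of which may be technical.

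Csf1r was the most abundant of the 6 genes in 11 of 12 libraries, and Il34 exceeded it only in AHR CKO Ctrl replicate 3. On the same per-length scale Csf2rb was lowest and Csf3r next to lowest in 12 of 12. Averaged over the 12 libraries, the levels were 57.0 FPKM for Csf1r, 25.0 for Il34, 18.0 for Csf2ra, 15.2 for Csf1, 5.87 for Csf3r and 1.41 for Csf2rb. Csf2rb passed the filter on low values, FPKM of at least 1 in at least 3 libraries, only through the cuprizone libraries. Its calls with cuprizone are therefore no independent support. No member was listed at 0 in any library, which in the WT libraries other than WT CPZ replicate 2 held for every gene of the table.

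With cuprizone all 4 receptor genes rose in both genotypes, Csf1 passed the test in AHR CKO and not in WT, and Il34 passed in neither. In AHR CKO, 5 of the 6 genes rose and 0 fell, where 7.22% of all tested genes rose and 2.98% fell. In WT, 4 of the 6 rose and 0 fell, where 9.08% of all tested genes rose and 7.81% fell. All 3 cuprizone libraries lay above all 3 control libraries for the same 5 genes in each genotype, a pattern held by 14.3% of tested genes in AHR CKO and by 15.8% in WT. In this bulk tissue, more cells of a type and more RNA per cell cannot be told apart. FPKM is also a relative measure, and markers of mature oligodendrocytes, the myelin-forming cells, fell with cuprizone, 9 of 10 in AHR CKO and 10 of 10 in WT. They summed to 4091 to 5003 FPKM in AHR CKO CPZ against 9476 to 10112 in AHR CKO Ctrl, and to 3052 to 3683 in WT CPZ against 9837 to 17868 in WT Ctrl. Their part in the receptor values was not tested. With each library rescaled to a common total (TPM), 763 genes rose and 530 fell in AHR CKO, against 993 and 410 without rescaling, and quantile normalization gave 916 and 608.

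**Figure D1:**
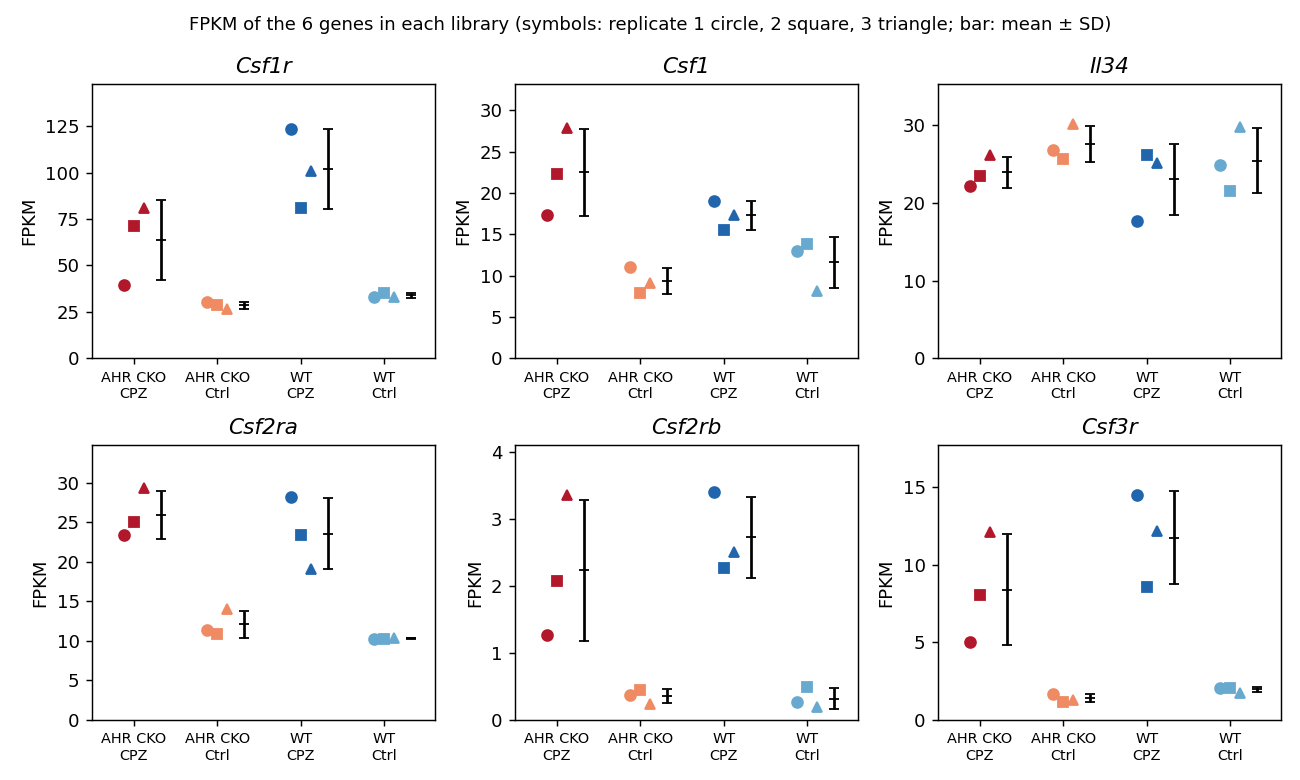
FPKM of the 6 genes in every library, with 1 panel per gene, groups along the x axis, symbols for the 3 replicates and bars for mean ± SD. Cuprizone libraries lie above control libraries of their genotype in the panels of Csf1r, Csf1, Csf2ra, Csf2rb and Csf3r, while the 4 groups overlap for Il34.

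Csf1r (chromosome 18, 61100598 to 61132149, plus strand, GRCm38), the receptor for both ligands, stood at 39.6, 71.2 and 80.7 FPKM in AHR CKO CPZ. It was 30.2, 28.8 and 26.5 FPKM in AHR CKO Ctrl. In WT it was 124, 81.1 and 101 FPKM in WT CPZ, against 33.1, 35.4 and 33.3 in WT Ctrl. All 3 libraries of each cuprizone group lay above their controls, and AHR CKO CPZ replicate 1 was far below the other two of its group. The gene rose 2.24-fold in AHR CKO (log2 change of log2(FPKM + 1) 1.08, SE 0.22, adjusted p = 0.00707) and 3.0-fold in WT (log2 change 1.54, SE 0.22, adjusted p = 0.000344; limma, Benjamini-Hochberg over all tested genes). These cuprizone changes did not pass the interaction test (difference in log2 change -0.46, 95% interval -1.13 to 0.21, adjusted p = 0.701). The summed FPKM of the 15 microglia markers moved with Csf1r, at 807 to 1296 in AHR CKO CPZ against 324 to 344 in AHR CKO Ctrl, and at 1170 to 1722 in WT CPZ against 351 to 386 in WT Ctrl. An exon of Hmgxb3 overlaps Csf1r on the other strand, and the sources used here do not say whether the counting used strand. Hmgxb3 averaged 8.78 ± 1.22 FPKM in AHR CKO CPZ, 9.21 ± 0.279 in AHR CKO Ctrl, 8.79 ± 0.434 in WT CPZ and 9.78 ± 0.658 in WT Ctrl, and passed no comparison.

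Csf1 (chromosome 3, 107741048 to 107760469, minus strand), the ligand made by glia, stood at 17.4, 22.3 and 27.9 FPKM in AHR CKO CPZ. It was 11, 7.96 and 9.12 FPKM in AHR CKO Ctrl. In WT it was 19.0, 15.5 and 17.4 FPKM in WT CPZ, against 13, 13.8 and 8.12 in WT Ctrl. Each cuprizone group lay wholly above its controls, by a wide margin in AHR CKO and a narrow one in WT, where WT Ctrl replicate 3 was the low library. Csf1 rose 2.41-fold in AHR CKO (log2 change 1.17, SE 0.20, adjusted p = 0.00224). Its mean was 17.3 ± 1.75 FPKM in WT CPZ against 11.6 ± 3.08 in WT Ctrl, which did not pass the test (log2 change 0.56, 95% interval 0.13 to 0.99, adjusted p = 0.0746). Without WT Ctrl replicate 3 the change was 0.34 (adjusted p = 0.248). The interaction did not pass either (difference 0.61, 95% interval -0.004 to 1.22, adjusted p = 0.524), so the cuprizone changes of the genotypes are not shown to differ. Astrocyte markers, of which 10 were listed and 10 detected, summed to 2254 to 2918 FPKM in AHR CKO CPZ against 1514 to 1546 in AHR CKO Ctrl, and to 2593 to 3147 in WT CPZ against 1526 to 1692 in WT Ctrl. With cuprizone 4 of the 10 were called higher in each genotype, 0 were lower in AHR CKO and 1, S100b, was lower in WT. Over all tested genes 7.22% rose and 2.98% fell in AHR CKO, and 9.08% rose and 7.81% fell in WT. The median log2 change of the 10 markers was 0.17 in AHR CKO and 0.33 in WT, against -0.01 and -0.04 over all tested genes. Among the higher astrocyte markers, the Aqp4 call was lost under 15 of 23 alternatives in AHR CKO and 7 of 23 in WT. The part of astrocyte markers in the Csf1 values was not tested.

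Il34 (chromosome 8, 110741829 to 110805924, minus strand), the neuronal ligand, did not change detectably. It stood at 22.2, 23.5 and 26.1 FPKM in AHR CKO CPZ and at 26.8, 25.6 and 30.1 in AHR CKO Ctrl. In WT CPZ it was 17.7, 26.1 and 25.1 FPKM, against 24.9, 21.5 and 29.8 in WT Ctrl. All groups overlapped their neighbours in level. The log2 change with cuprizone was -0.19 in AHR CKO (95% interval -0.52 to 0.13, adjusted p = 0.473) and -0.14 in WT (95% interval -0.47 to 0.18, adjusted p = 0.566). Neuron markers, 10 of 10 detected, likewise had 0 calls with cuprizone in either genotype (limma; at an unadjusted p under 0.05, 1 in AHR CKO and 2 in WT). Their sums were 2857 to 3176 FPKM in AHR CKO CPZ, 2886 to 3795 in AHR CKO Ctrl, 2377 to 3148 in WT CPZ and 3033 to 3456 in WT Ctrl. The antisense transcripts Gm15894 and Gm15895 share exonic bases with Il34 on the other strand.

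Csf2ra (chromosome 19, 61223957 to 61228429, minus strand), the chain that binds GM-CSF, hardly varied among the WT Ctrl libraries. It stood at 23.4, 25.1 and 29.3 FPKM in AHR CKO CPZ and at 11.4, 10.9 and 14.0 in AHR CKO Ctrl. In WT CPZ it was 28.2, 23.4 and 19.2 FPKM, while each WT Ctrl library was at 10.3. Both cuprizone groups lay wholly above their controls. Csf2ra rose 2.14-fold in AHR CKO (log2 change 1.04, SE 0.14, adjusted p = 0.000345) and 2.29-fold in WT (log2 change 1.10, SE 0.14, adjusted p = 0.000127). The difference between these changes was -0.06 (95% interval -0.48 to 0.36, adjusted p = 0.956).

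Csf2rb (chromosome 15, 78325752 to 78353847, plus strand), the beta chain shared by the GM-CSF, IL-3 and IL-5 receptors, was scarce in control tissue. It stood at 1.26, 2.08 and 3.35 FPKM in AHR CKO CPZ and at 0.376, 0.445 and 0.235 in AHR CKO Ctrl. In WT CPZ it was 3.40, 2.26 and 2.50 FPKM, against 0.265, 0.490 and 0.190 in WT Ctrl. No control library came near a cuprizone library. By the depth estimate these levels rest on about 89 to 220 fragments in cuprizone libraries and 11 to 29 in control libraries. The log2 change was 1.21 in AHR CKO (SE 0.21, adjusted p = 0.00303) and 1.5 in WT (SE 0.21, adjusted p = 0.000384). As the added 1 compresses changes at such levels, the ratio of means was larger, 6.34 in AHR CKO and 8.65 in WT. Mouse has a near copy, Csf2rb2, which serves the IL-3 receptor alone and lies 20030 bases away, so fragments may have been split between them. The sum of both averaged 4.02 ± 2.05 FPKM in AHR CKO CPZ, 0.607 ± 0.0693 in AHR CKO Ctrl, 4.69 ± 0.996 in WT CPZ and 0.526 ± 0.133 in WT Ctrl.

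Csf3r (chromosome 4, 126024550 to 126044440, plus strand), the G-CSF receptor, had the largest change of the 6 in log2(FPKM + 1) in both genotypes, although by the ratio of means Csf2rb rose more in both. It stood at 5.02, 8.02 and 12.1 FPKM in AHR CKO CPZ and at 1.67, 1.17 and 1.29 in AHR CKO Ctrl. In WT CPZ it was 14.5, 8.58 and 12.2 FPKM, against 2.07, 2.06 and 1.75 in WT Ctrl. The lowest cuprizone library was again AHR CKO CPZ replicate 1, still above all controls. Csf3r rose 6.09-fold in AHR CKO (log2 change 1.91, SE 0.24, adjusted p = 0.000288) and 6.0-fold in WT (log2 change 2.08, SE 0.24, adjusted p = 8.91e-05). The receptor is best known from neutrophils. Of 12 neutrophil markers only S100a9 and Mmp9 were in the table, and neither passed the filter, so none of the 12 could be tested. Absence of the others from the table does not show their absence from the tissue. The sums of S100a9 and Mmp9 were 0.661 to 1.45 FPKM in AHR CKO CPZ, 0.677 to 1.60 in AHR CKO Ctrl, 0.537 to 1.80 in WT CPZ and 0.711 to 1.16 in WT Ctrl, with no separation of cuprizone from control libraries. The part of neutrophils in the Csf3r values was not tested.

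**Figure D2:**
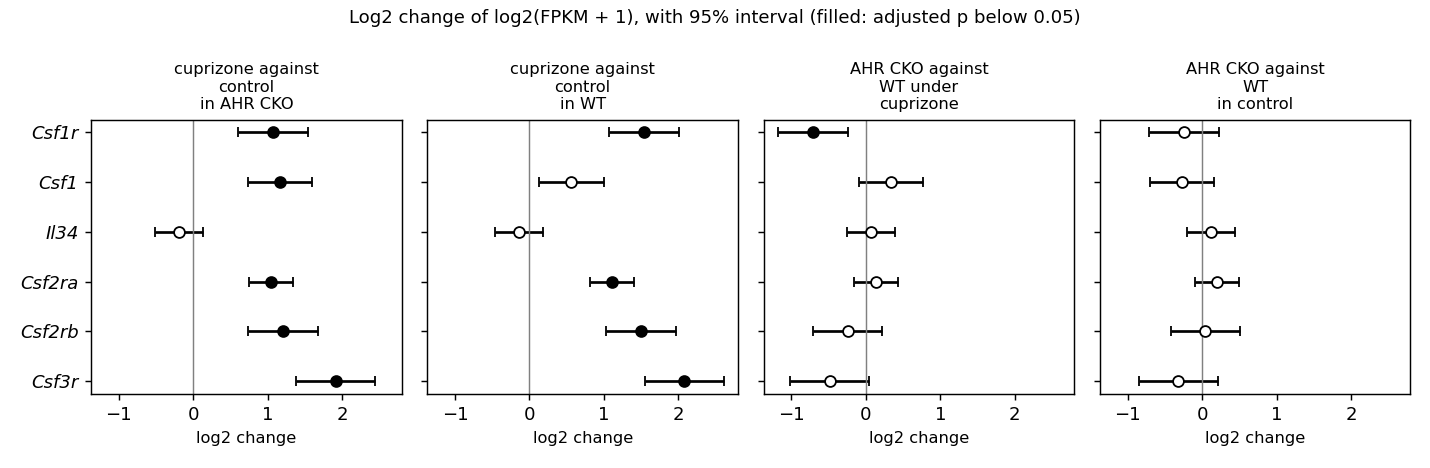
Log2 change of log2(FPKM + 1) with its 95% interval (x axis) for the 6 genes (rows) in 4 comparisons (panels), filled where the adjusted p is under 0.05. The receptor genes sit at 1.04 to 2.08 with cuprizone, Il34 lies near 0 throughout, and with genotype the single filled point is Csf1r under cuprizone at -0.71.

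Promoter windows of RefSeq (GRCm38.p6, 250 bases before to 50 after the start) matched 3 of the 6 genes, all of which rose with cuprizone in at least 1 genotype, and are shown to set those genes side by side. Capitals mark GAGGAA, a core of the sites bound by PU.1, the ETS factor of macrophages encoded by Spi1, searched on both strands. Csf3r (chr4:126024409-126024708, plus strand) held 1 match, 86 bases before the start. Csf2ra (chr19:61228369-61228668, minus strand) held 2 adjoining matches that do not overlap, 14 and 8 bases before the start. Csf1 (chr3:107760420-107760719, minus strand) held 0. The letters occur in 28.3% of 32851 windows of 300 bases, and a match is a description, not a known site.
Csf3r: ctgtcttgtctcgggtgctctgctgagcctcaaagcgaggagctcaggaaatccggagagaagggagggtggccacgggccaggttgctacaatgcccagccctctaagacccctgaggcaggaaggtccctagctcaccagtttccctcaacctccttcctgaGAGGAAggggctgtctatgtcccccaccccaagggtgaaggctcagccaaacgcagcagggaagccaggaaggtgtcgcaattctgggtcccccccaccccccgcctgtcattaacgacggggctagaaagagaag
Csf2ra: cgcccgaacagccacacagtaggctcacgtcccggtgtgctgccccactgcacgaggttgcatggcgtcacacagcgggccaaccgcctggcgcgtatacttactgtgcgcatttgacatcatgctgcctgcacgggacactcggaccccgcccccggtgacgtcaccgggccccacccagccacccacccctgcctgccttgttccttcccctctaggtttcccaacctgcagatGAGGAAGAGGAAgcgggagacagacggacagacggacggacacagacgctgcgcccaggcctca
Csf1: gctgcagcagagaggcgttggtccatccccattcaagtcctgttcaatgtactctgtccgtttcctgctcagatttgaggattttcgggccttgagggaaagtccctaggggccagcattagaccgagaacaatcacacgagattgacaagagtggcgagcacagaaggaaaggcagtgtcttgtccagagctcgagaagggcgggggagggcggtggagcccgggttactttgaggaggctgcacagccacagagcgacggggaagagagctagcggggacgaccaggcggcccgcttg

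The balance of receptor and ligands was then set out within each library, where a ratio shows unequal change and not which gene moved. The ratio of Il34 to Csf1 was 0.936 to 1.28 in AHR CKO CPZ, against 2.44 to 3.30 in AHR CKO Ctrl, and these groups did not overlap. In WT CPZ the ratio was 0.930 to 1.68, against 1.55 to 3.67 in WT Ctrl, and these groups did overlap. Csf1r over the sum of its ligands was 1.0 to 1.56 in AHR CKO CPZ and 0.675 to 0.859 in AHR CKO Ctrl. It was 1.95 to 3.37 in WT CPZ and 0.874 to 1.0 in WT Ctrl. Every AHR CKO library thus lay below every WT library under cuprizone, and also in control tissue. Single tested genes separated the genotypes in 38.8% of cases under cuprizone and 35.4% in control tissue. Csf1r FPKM was also set against the geometric mean of FPKM + 1 of the 15 microglia markers. This log2 ratio was 1.22 ± 0.123 in AHR CKO CPZ, 1.09 ± 0.129 in AHR CKO Ctrl, 1.32 ± 0.038 in WT CPZ and 1.06 ± 0.053 in WT Ctrl. On that scale the genotypes overlapped under cuprizone, at 1.08 to 1.32 in AHR CKO CPZ and 1.30 to 1.37 in WT CPZ. Leaving Cx3cr1 out of the markers, a choice made after seeing the data, gave 1.14 ± 0.240 in AHR CKO CPZ, 0.952 ± 0.126 in AHR CKO Ctrl, 1.36 ± 0.040 in WT CPZ and 1.10 ± 0.051 in WT Ctrl, with no overlap of the genotypes under cuprizone.

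**Figure D3:**
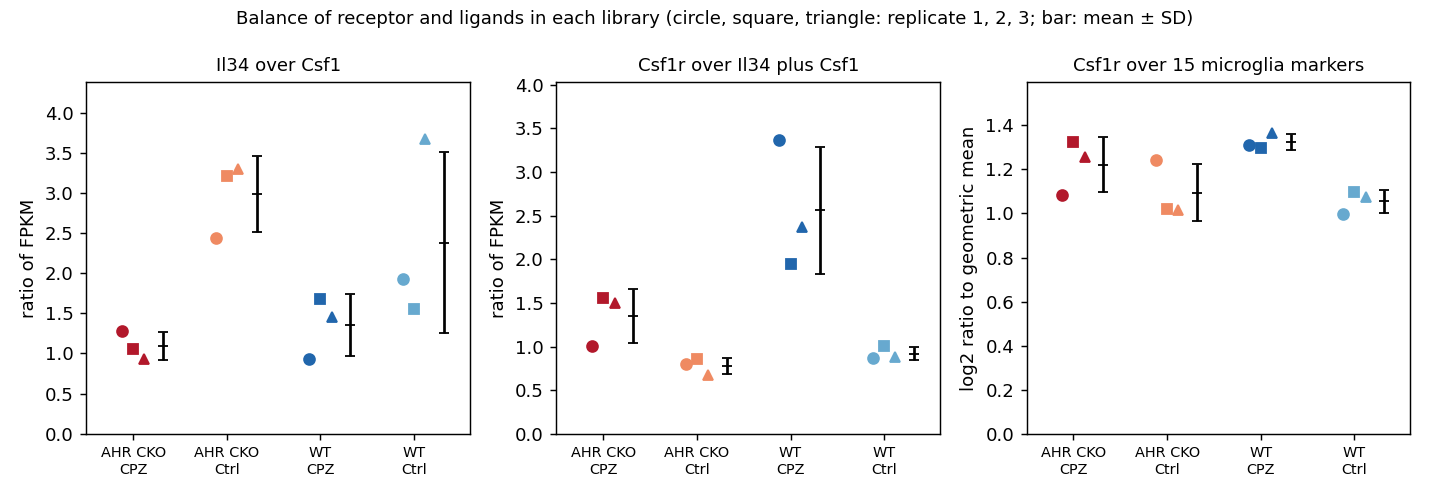
Il34 over Csf1 (left) and Csf1r over both ligands (middle) as ratios of FPKM, and Csf1r over 15 microglia markers as a log2 ratio to the geometric mean of their FPKM + 1 (right), for each library and as mean ± SD by group. Csf1r over both ligands is 1.0 to 1.56 in AHR CKO CPZ against 1.95 to 3.37 in WT CPZ. It is 0.675 to 0.859 in AHR CKO Ctrl against 0.874 to 1.0 in WT Ctrl. The right panel shows the cuprizone groups of both genotypes touching.

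Between genotypes, Csf1r passed under cuprizone, where it was lower in AHR CKO, and no other member passed. That is 1 of the 6 genes, beside 20.0% of all tested genes called and 10.8% called lower, a share near the background. With TPM scaling 626 genes were called higher and 2332 lower (16.9% of those tested), against 1257 and 1490 without it, and the median of all genes moved to -0.11, beside which Csf1r stood at -0.84. Csf1r was also the 1 gene of the 6 whose libraries did not overlap, as they did not for 38.8% of tested genes. Csf1r averaged 63.8 ± 21.5 FPKM in AHR CKO CPZ and 102 ± 21.3 in WT CPZ (SD, n = 3 each), and no library of one group reached the other, the nearest being 80.7 in AHR CKO CPZ and 81.1 in WT CPZ. The log2 change was -0.71 (SE 0.22, 95% interval -1.18 to -0.24, adjusted p = 0.0395), a ratio of 0.626. The adjusted p lay near the threshold and the call was lost under several alternatives. Without AHR CKO CPZ replicate 1, the library with Csf1r at 39.6 and Cx3cr1 at 1.16 FPKM, the change was -0.40 (adjusted p = 0.114), and without WT CPZ replicate 1 it was -0.56 (adjusted p = 0.133). Without WT CPZ replicate 3 it was -0.70 (adjusted p = 0.0948), and without AHR CKO CPZ replicate 2 it was -0.82 (adjusted p = 0.0532). Leaving out replicate 1 or 2 of either control group left the change at -0.71, with adjusted p of 0.0518 to 0.0547. With the cuprizone groups fitted alone it was -0.71 (adjusted p = 0.114), and with length and GC trends removed it was -0.65 (adjusted p = 0.0812). Microglia markers moved the same way, with 0 of 15 higher, 5 lower and 10 not past the test (median log2 change -0.49, against 0.002 over all tested genes). Among the lower ones were Gpr34 and Fcrls, whose calls were kept under all 23 alternatives, and Itgam and Ptprc, lost under 6 of 23 (largest adjusted p = 0.122) and 12 of 22 (0.130). Both of these were lost without replicate 1 or 3 of WT CPZ or replicate 1 or 2 of AHR CKO CPZ, and Ptprc also without replicate 1 or 2 of either control group. Leaving out replicate 1 or 3 of WT CPZ or replicate 1 or 2 of AHR CKO CPZ left 2 lower, while leaving out WT CPZ replicate 2 gave 8 and AHR CKO CPZ replicate 3 gave 9. Gpr34, a lysophospholipid receptor of microglia, averaged 15.4 ± 4.22 FPKM in AHR CKO CPZ and 29.6 ± 5.83 in WT CPZ (log2 change -0.92, adjusted p = 0.00954). Whether Csf1r differed beyond the number of microglia was not tested.

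The other 5 genes did not pass between genotypes under cuprizone. Csf3r averaged 8.38 ± 3.57 FPKM in AHR CKO CPZ and 11.8 ± 2.98 in WT CPZ (log2 change -0.49, 95% interval -1.01 to 0.04, adjusted p = 0.165). Without AHR CKO CPZ replicate 3 this became -0.76 (adjusted p = 0.0278). Csf1 averaged 22.5 ± 5.26 FPKM in AHR CKO CPZ and 17.3 ± 1.75 in WT CPZ (log2 change 0.34, 95% interval -0.09 to 0.77, adjusted p = 0.229). Csf2ra, Csf2rb and Il34 changed by 0.14, -0.24 and 0.07 on the log2 scale, with adjusted p of 0.463, 0.425 and 0.754. The libraries of the genotypes overlapped for all 5.

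In control tissue 0 of the 6 genes passed between genotypes (limma; 0 also at an unadjusted p under 0.05), beside 6.19% of all tested genes. The libraries did separate for 3 of the 6, where 35.4% of tested genes separated. Csf1r averaged 28.5 ± 1.88 FPKM in AHR CKO Ctrl and 33.9 ± 1.30 in WT Ctrl, with every AHR CKO library lower (log2 change -0.25, adjusted p = 0.492). Csf3r was also lower in every AHR CKO library, at 1.38 ± 0.261 FPKM in AHR CKO Ctrl against 1.96 ± 0.180 in WT Ctrl (log2 change -0.32, adjusted p = 0.415). Csf2ra was higher in every AHR CKO library, at 12.1 ± 1.69 FPKM in AHR CKO Ctrl against 10.3 ± 0.0235 in WT Ctrl (log2 change 0.21, adjusted p = 0.348). The interaction passed for 0 of the 6 (limma; 0 also at an unadjusted p under 0.05), beside 0.0363% of all tested genes.

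The genes that relay the CSF1R signal were followed as a list of 20, all tested. With cuprizone 7 rose, 0 fell and 13 did not pass in AHR CKO (median log2 change 0.35, against -0.01 over all tested genes), where 7.22% of all tested genes rose. In WT 10 rose, 1 fell and 9 did not pass (median 0.47, against -0.04), where 9.08% of all tested genes rose and 7.81% fell. Tyrobp, which encodes the adaptor DAP12 of TREM2 and takes part in CSF1R signalling, had the smallest p in both genotypes. It averaged 165 ± 25.5 FPKM in AHR CKO CPZ against 32.0 ± 6.91 in AHR CKO Ctrl (adjusted p = 4.22e-05), and 264 ± 55.3 in WT CPZ against 32.1 ± 9.79 in WT Ctrl (adjusted p = 5.2e-06). Ptpn6, the phosphatase SHP-1 that dampens receptor kinases of blood cells, averaged 13.4 ± 3.96 FPKM in AHR CKO CPZ against 2.67 ± 0.515 in AHR CKO Ctrl, and 18.7 ± 3.42 in WT CPZ against 3.02 ± 0.347 in WT Ctrl. Lyn, a Src-family kinase gene, rose in both genotypes, with a log2 change of 1.18 in AHR CKO and of 1.69 in WT. Dok1, a docking protein, and Plcg2, a phospholipase, also rose in both, by 1.26 and 0.96 in AHR CKO and by 1.09 and 1.24 in WT. Pik3r1, a regulatory subunit of PI3 kinase, fell in WT to 26.6 ± 2.78 FPKM in WT CPZ, against 37.9 ± 4.85 in WT Ctrl (adjusted p = 0.0208). That call was lost without replicate 1 or 2 of WT Ctrl or replicate 1 or 3 of WT CPZ (largest adjusted p over the alternatives = 0.0884).

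Between genotypes the relay genes held 4 calls under cuprizone, 1 higher and 3 lower of 20, and 0 higher and 2 lower in control tissue. These shares are at or near those of all tested genes, of which 20.0% were called under cuprizone and 6.19% in control tissue. Cbl, a ubiquitin ligase that tags activated CSF1R for breakdown, was lower in AHR CKO in both. It stood at 0.962, 1.37 and 2.05 FPKM in AHR CKO CPZ, against 6.87, 4.38 and 5.54 in WT CPZ. In control tissue it was 3.45, 2.78 and 1.28 FPKM in AHR CKO Ctrl and 5.61, 5.79 and 6.36 in WT Ctrl. No AHR CKO library reached a WT library. The log2 change was -1.43 under cuprizone (adjusted p = 0.00565), a call kept under all 22 alternatives that could be run. In control tissue it was -1.04 (adjusted p = 0.0349), lost under 10 of 22 alternatives, 7 of them leaving out a single library (replicates 1, 2 or 3 of WT Ctrl, 3 of WT CPZ, 2 or 3 of AHR CKO Ctrl, 2 of AHR CKO CPZ; largest adjusted p = 0.126). Sos1, a Ras activator, and Pik3cg, a PI3 kinase subunit, were lower under cuprizone and Akt1 was higher. Each of these was lost without replicate 1 or 2 of AHR CKO CPZ or replicate 1 or 3 of WT CPZ. Pik3cg and Akt1 were also lost without AHR CKO Ctrl replicate 2, and Akt1 without WT Ctrl replicate 1 (adjusted p over all alternatives up to 0.897 for Sos1, 0.201 for Pik3cg and 0.385 for Akt1). With length and GC trends removed, Sos1 turned to 0.0192 on the log2 scale. Leaving out AHR CKO CPZ replicate 3 gave 7 lower relay genes. Pik3r1 was lower in control tissue, lost under 16 of 23 alternatives, 8 of them leaving out a single library (replicate 1 or 2 of WT Ctrl, 1 or 3 of WT CPZ, any of AHR CKO Ctrl, 2 of AHR CKO CPZ; largest adjusted p = 0.446).

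Transcription factors of the macrophage lineage, with regulators of Csf1r among them, were followed as a list of 12, all tested. With cuprizone 5 rose, 0 fell and 7 did not pass in AHR CKO (median log2 change 0.61, against -0.01 over all tested genes, of which 7.22% rose). In WT 7 rose, 0 fell and 5 did not pass (median 0.80, against -0.04 over all tested genes, of which 9.08% rose). Spi1, which encodes PU.1, averaged 23.1 ± 5.95 FPKM in AHR CKO CPZ against 6.68 ± 1.27 in AHR CKO Ctrl (log2 change 1.63, adjusted p = 0.000145). In WT it averaged 27.0 ± 4.27 FPKM in WT CPZ against 5.68 ± 0.793 in WT Ctrl (log2 change 2.06, adjusted p = 1.58e-05). Irf8, a partner of PU.1, had log2 changes of 2.12 in AHR CKO and 2.54 in WT. Cebpa had 1.40 in each, and Runx1 had 0.86 in AHR CKO and 1.09 in WT. Runx1 passed the filter on low values only through cuprizone libraries. Between genotypes under cuprizone 0 of the 12 were higher and 2 lower, where 10.8% of all tested genes were lower. Sall1, a factor of microglial identity, was lower in AHR CKO under cuprizone, at 8.72 ± 1.46 FPKM in AHR CKO CPZ against 14.3 ± 1.54 in WT CPZ (log2 change -0.66, adjusted p = 0.0131). It was lost without replicate 1 of either cuprizone group (adjusted p up to 0.0572). Maf was lower there too (log2 change -0.43, adjusted p = 0.0449), a call lost under 14 of 22 alternatives, 9 of them leaving out a single library (replicate 1 or 2 of WT Ctrl, any of WT CPZ, any of AHR CKO Ctrl, 1 of AHR CKO CPZ; largest adjusted p = 0.452). Fos, an immediate early gene, was higher in AHR CKO control tissue, at 23.8 ± 2.50 FPKM in AHR CKO Ctrl against 7.04 ± 2.71 in WT Ctrl (log2 change 1.68, adjusted p = 0.0164), and was lost without WT Ctrl replicate 2 or AHR CKO Ctrl replicate 2 or 3 (largest adjusted p = 0.0892).

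**Figure D4:**
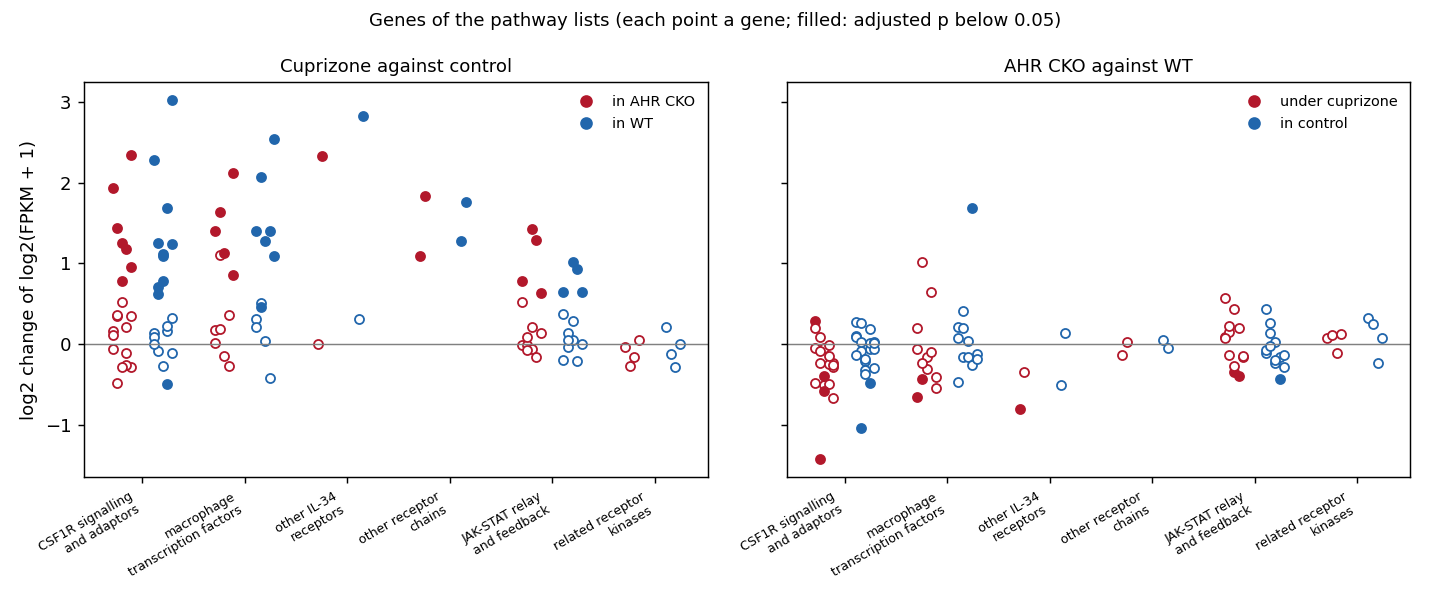
Log2 change of every tested gene of the 6 pathway lists with cuprizone (left) and between genotypes (right), 1 point a gene, filled where the adjusted p is under 0.05. Filled points lie above 0 for nearly all cuprizone calls, Tyrobp at 3.02 in WT being the highest, and between genotypes few points are filled.

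IL-34 has been reported to bind receptors other than CSF1R, and 2 of 3 listed genes could be tested. Trem2, the lipid receptor of microglia, averaged 110 ± 20.3 FPKM in AHR CKO CPZ against 20.9 ± 2.79 in AHR CKO Ctrl (log2 change 2.33, adjusted p = 5.5e-06). In WT it averaged 141 ± 23.8 FPKM in WT CPZ and 18.9 ± 1.28 in WT Ctrl. Ptprz1, a phosphatase of glial precursors and astrocytes, did not pass with cuprizone but was lower in AHR CKO under cuprizone, at 19.0 ± 3.58 FPKM in AHR CKO CPZ against 34.1 ± 6.81 in WT CPZ (log2 change -0.81, adjusted p = 0.0133). That call was lost without AHR CKO CPZ replicate 1 or WT CPZ replicate 1, or with length and GC trends removed (largest adjusted p = 0.0602). Of 7 other chains and ligands of the GM-CSF, IL-3, IL-5 and G-CSF systems, only Csf2rb2 and Il3ra were in the table, and both rose in both genotypes. Il3ra, the chain that binds IL-3, averaged 3.74 ± 0.449 FPKM in AHR CKO CPZ against 0.343 ± 0.233 in AHR CKO Ctrl (adjusted p = 6.41e-05), and 3.73 ± 1.05 in WT CPZ against 0.376 ± 0.138 in WT Ctrl (adjusted p = 3.91e-05). Both chains passed the filter on low values only through cuprizone libraries.

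Downstream of the cytokine-class receptors, 13 JAK-STAT and feedback genes were tested. With cuprizone 4 rose, 0 fell and 9 did not pass in each genotype, with a median log2 change of 0.13 in each. Over all tested genes 7.22% rose in AHR CKO (median -0.01) and 9.08% in WT (median -0.04). Stat3, Socs1 and Socs3 were among them in both. Socs3, the inhibitor induced by G-CSF signalling, averaged 6.21 ± 1.92 FPKM in AHR CKO CPZ against 1.61 ± 0.227 in AHR CKO Ctrl (log2 change 1.43, adjusted p = 0.00023), and 4.21 ± 0.389 in WT CPZ against 1.57 ± 0.268 in WT Ctrl (log2 change 1.02, adjusted p = 0.00137). Stat3 and Socs1 had log2 changes of 0.63 and 0.78 in AHR CKO and of 0.64 each in WT. The Socs1 call in AHR CKO was lost without replicate 1 or 3 of AHR CKO Ctrl or replicate 1 or 2 of AHR CKO CPZ (largest adjusted p = 0.0785). In WT it was lost under 10 of 22 alternatives, among them without replicate 2 or 3 of WT Ctrl, 1 or 2 of WT CPZ, 1 of AHR CKO Ctrl or 2 of AHR CKO CPZ (largest adjusted p = 0.148). Jak2, the kinase bound to the common beta chain, was lower in AHR CKO under cuprizone, at 10.7 ± 1.28 FPKM in AHR CKO CPZ against 14.3 ± 0.636 in WT CPZ (adjusted p = 0.0192). In control tissue it was 12.1 ± 1.13 FPKM in AHR CKO Ctrl and 16.6 ± 0.470 in WT Ctrl (adjusted p = 0.0348). The call under cuprizone was lost without AHR CKO CPZ replicate 1 or WT CPZ replicate 3 (adjusted p over the alternatives up to 0.199). The call in control tissue was lost without replicate 1 or 2 of WT Ctrl, 3 of WT CPZ, 2 or 3 of AHR CKO Ctrl or 2 of AHR CKO CPZ (up to 0.186). The other receptor kinases of the CSF1R class, Kit, Flt3, Pdgfra and Pdgfrb, had 0 calls in all comparisons (limma; at an unadjusted p under 0.05, Pdgfra with cuprizone in WT and Flt3 between genotypes in control tissue). Pdgfrb, which lies 15536 bases from Csf1r, averaged 6.90 ± 1.14 FPKM in AHR CKO CPZ, 6.58 ± 0.773 in AHR CKO Ctrl, 6.21 ± 0.475 in WT CPZ and 6.18 ± 0.290 in WT Ctrl.

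Other myeloid cells were checked by their markers. Border macrophage genes, 7 of 8 in the table, summed to 4.27 to 5.08 FPKM in AHR CKO CPZ, 3.56 to 4.71 in AHR CKO Ctrl, 3.32 to 6.51 in WT CPZ and 1.89 to 3.75 in WT Ctrl. Genes of monocytes and dendritic cells, 6 of 11 in the table, summed to 6.28 to 7.71 FPKM in AHR CKO CPZ, 4.21 to 5.76 in AHR CKO Ctrl, 5.50 to 8.46 in WT CPZ and 3.51 to 5.51 in WT Ctrl. The sums of monocytes and dendritic cells did not overlap between AHR CKO CPZ and AHR CKO Ctrl, and did between WT CPZ and WT Ctrl. Among single tested genes, 14.3% lay wholly higher with cuprizone in AHR CKO. Of the monocyte and dendritic cell list 4 genes were tested, and 0 passed with cuprizone in either genotype (limma). At an unadjusted p under 0.05 there were 3 in AHR CKO and 1 in WT. Of the border macrophage list only Ms4a7 and Pf4 were tested, with a median log2 change of 0.24 with cuprizone in AHR CKO. Ms4a7 was higher there, at 1.20, 0.835 and 1.66 FPKM in AHR CKO CPZ against 0.198, 0 and 0 in AHR CKO Ctrl (limma, adjusted p = 0.0131). It passed the filter on low values with no AHR CKO Ctrl library at 1 FPKM, so this call is no independent support. The call was lost without AHR CKO Ctrl replicate 2 or AHR CKO CPZ replicate 3 (largest adjusted p = 0.0588). Pf4 did not pass (limma; its unadjusted p was under 0.05) and was called lower without AHR CKO CPZ replicate 2. The part of these cells in the receptor values was not tested.

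The profiles of the 6 genes over the 12 libraries were compared by the root mean square difference of their log2 values after each gene's mean was removed. The closest pair was Csf1r and Csf2rb at 0.225, then Csf2ra and Csf2rb at 0.289, and the farthest was Il34 and Csf3r at 1.16. The added 1 compresses Csf2rb on this scale: by the ratio of means it rose more than Csf1r, 6.34-fold against 2.24-fold in AHR CKO and 8.65-fold against 3.0-fold in WT. Among 13017 named genes, those nearest to Csf1r included Naip2 (0.12), Dock2 (0.129), Emr1 (0.141) and Tlr7 (0.144), where Csf1r itself varied by 0.750 on this scale. Nearest to Csf1 were Parp12, Steap3, Sh3bp2, Srebf1 and Sbno2 (0.134 to 0.183, own spread 0.513). Those nearest to Il34 were Fbxl2, Nrsn1, Kcnj11, Slc7a4 and Cinp (0.0769 to 0.0972, own spread 0.193). Csf2ra had Trim47, Ftl1, Tapbp, Ppp1r18 and Anxa5 (0.146 to 0.153, own spread 0.564), and Csf2rb had Vav1, Apbb1ip, Fgr, Mamdc2 and Igf1 (0.0877 to 0.111, own spread 0.719). Nearest to Csf3r were AF251705, Ptpn6, Ptprc, Fyb and Fcgr1 (0.135 to 0.171, own spread 1.06). These likenesses describe 12 libraries in 4 groups and are not tests.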

How the data were processed

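Per the labels' protocols, total RNA of the corpus callosum was extracted and the SMARTER mRNA-Seq kit was used to prepare it for sequencing, and the builds GRCm38 and mm10 are named in the submitters' processing notes. The aligner, quantifier and annotation were not given in the sources used. The authors deposited FPKM per gene and library, per the file headers. The table holds no counts, so no interval that needs depth is given, and the fragment numbers in the text are estimates from the lowest values.

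From these values log2(FPKM + 1) was computed, and a gene was tested if 3 or more of its 12 values reached 1 FPKM (13759 of 15584, 88.3%). With limma 3.58.1 (R 4.3.3), 4 group means were estimated from the 12 libraries together, using a trend in the prior variance. Contrasts set cuprizone against control within a genotype, and AHR CKO against WT with and without cuprizone, and included the interaction. P-values are limma's moderated ones, two-sided and adjusted by Benjamini-Hochberg over all tested genes, with a threshold of 0.05, and intervals cover 95%. With 3 libraries against 3, an exact permutation test of a single gene could not go below 0.10, so none was used. The fit was tested on simulated data. Table symbols of 25 rows had been turned into dates and name no gene.

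The 6 members and all gene lists were chosen with earlier results of these data known. From each list, the text names up to 4 genes with the smallest adjusted p in a comparison, and a few genes beyond these were named after their values were seen. Likeness is the root mean square difference of mean-centred log2 profiles. Alternatives changed the pseudocount (0.1), the filter (none, or a mean FPKM of at least 5), the scaling (TPM, median-of-ratios, quantile), the variance model (sample quality weights, no trend), the replicate block and the libraries (groups compared only, each library left out). Removal of length and GC trends (known for 13123 genes, 95.4%) and leaving out Cx3cr1 were chosen after seeing the data. Gene positions are from GENCODE M21 and promoters from RefSeq. A few genes of these lists and of the likeness ranking are counted but not reported by name here.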

Additional observations from a re-analysis of the deposited data

How the results depend on the processing

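The cuprizone calls on Csf1r, Csf2ra, Csf2rb and Csf3r in both genotypes and on Csf1 in AHR CKO were kept under every alternative run, 22 for Csf2rb and 23 for each other gene. Csf2rb passed the filter on low values only through cuprizone libraries, so its kept calls are no independent support. The call on Csf1 in WT was gained with sample quality weights alone (log2 change 0.44, adjusted p = 0.0155, and up to 0.248 under the others). The difference in Csf1r between genotypes under cuprizone was lost under 11 of 23 alternatives, with log2 changes of -0.91 to -0.40 and adjusted p of 0.0005 to 0.133. Between genotypes under cuprizone the count of members called was 4 with quality weights, and 0 with the replicate block, with the groups compared only and with length and GC trends removed. It was 0 to 2 with single libraries left out. Quality weights also called 1 member between genotypes in control tissue and 1 in the interaction.

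Over all genes, quality weights gave 4846 calls with cuprizone in AHR CKO, 5100 with cuprizone in WT, 8036 between genotypes under cuprizone, 4477 between genotypes in control tissue and 2556 in the interaction. A mean FPKM of at least 5 gave 901 with cuprizone in AHR CKO. With length and GC trends removed there were 801 between genotypes under cuprizone, 47 in control tissue and 11 in the interaction. The groups compared only gave 1070 between genotypes under cuprizone and 127 in control tissue. The interaction had 1 call without a filter and 2 without a trend in the variance. Leaving out single libraries gave 840 to 1553 calls with cuprizone in AHR CKO, 777 to 3305 between genotypes under cuprizone, 4 to 1428 in control tissue and 0 to 103 in the interaction.

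The labels do not say whether replicate numbers pair the samples. Of 18 pairs of libraries with the same number, 3 had a correlation of deviations over 0.1 (range -0.343 to 0.250, against -0.396 to 0.440 in 36 other pairs). As each deviation is taken from a mean of 3 libraries, these correlations cannot decide whether samples were paired. With the replicate block there were 1806 calls between genotypes under cuprizone, 51 in control tissue and 0 in the interaction, and Csf1r under cuprizone had an adjusted p of 0.0685.

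Direction turned in values that did not pass, and in the called gene Sos1. Il34 with cuprizone in WT was 0.0267 with quality weights and -0.255 to 0.0251 with single libraries left out. Il34 between genotypes under cuprizone was -0.0539 with TPM scaling, -0.0604 with quality weights, -0.183 with length and GC trends removed and -0.0989 to 0.169 with single libraries left out. With length and GC trends removed, Il34 was -0.0547 and Csf2ra -0.0380 between genotypes in control tissue, Csf2ra was -0.198 under cuprizone, and Sos1 was 0.0192 there. Csf2rb between genotypes in control tissue was -0.0249 to 0.137 with single libraries left out. The interaction was -0.218 to 0.0614 for Il34, -0.197 to 0.0696 for Csf2ra and -0.444 to 0.119 for Csf3r with single libraries left out, and 0.221 for Csf2ra with quality weights. Of the pathway list calls, 17 of 19 with cuprizone in AHR CKO, 21 of 25 with cuprizone in WT, 1 of 9 between genotypes under cuprizone and 0 of 4 in control tissue were kept under every alternative run. The kept cuprizone calls include Runx1, Csf2rb2 and Il3ra in both genotypes. These genes passed the filter on low values only through cuprizone libraries, so their calls are no independent support. The cause of the changes between alternatives was not tested. Depth limits Csf2rb most, at about 11 to 29 estimated fragments in control libraries.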
